A study of Mus musculus with 20 samples.

Results

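Type 1 conventional dendritic cells (cDC1s) of mice prepared with TLI/ATS, which is irradiation of the lymphoid organs combined with a serum against thymocytes, were compared with cDC1s from untreated mice (UNT) by RNA sequencing. The comparison rests on 1 count table with 2 TLI/ATS libraries and 2 UNT libraries, which are 4 of the 20 samples of the series, and on all 47729 genes in that table. Both groups were wild-type C57BL/6 mice, and both were sorted by flow cytometry as XCR1+CD8a+ cells. The TLI/ATS cells were taken on day 15, the day after the last dose, and the UNT cells came from mice with no treatment and no time label. The labels give neither the organ, the number of mice behind a library, nor whether mice were pooled, so p-values here measure the spread between libraries, which may be technical. With 2 libraries per group, each p-value also rests on a spread estimated across all genes.

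cDC1s take up dying cells, carry their antigens through the cytosol or vacuole onto MHC class I, and show them to CD8 T cells. Their receptor XCR1 follows XCL1, which activated CD8 T cells and NK cells secrete. In the absence of inflammation the same route can silence T cells instead of arming them. TLI/ATS depletes lymphocytes and is used to prepare recipients for transplant tolerance, and the comparison asks which properties cDC1s have once it is complete. EpoR, the receptor for erythropoietin, signals through the kinase JAK2 and the factor STAT5 and is best known for keeping red cell precursors alive.

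The libraries held 77.6 and 67.3 M counts after TLI/ATS, against 46.2 and 40.6 M counts in UNT cDC1s. A floor of 3 counts corresponds to 0.0387 to 0.0739 CPM, the count scaled to a library of 1 M counts. The labelled cell type was checked against 12 cDC1 markers (Xcr1, Clec9a, Cd8a, Batf3, Irf8, Cadm1, Wdfy4, Tlr3, Itgae, Naaa, Zbtb46 and Flt3). Xcr1 and Cd8a among them are genes of the sort, so the gate itself selects for them. All 12 stood above 50 CPM in all 4 libraries, the lowest value being 70.4 CPM, and none passed edgeR's test, although DESeq2 called Itgae and Naaa higher. The TLI/ATS libraries were less alike than the UNT libraries: of the 9168 genes whose mean level reached 3 log2 CPM, 5.22% lay over 2-fold apart within TLI/ATS, against 0.731% within UNT and 5.25% to 5.81% across groups. Pearson's r of log2 CPM was 0.959 within TLI/ATS, 0.978 within UNT and 0.93 to 0.933 across groups. Chi-square per gene, which grows with depth, was 303 within TLI/ATS, the deepest pair, 15.8 within UNT and 162 to 227 across groups. The difference within TLI/ATS followed transcript length. In the ratio of library TLI/ATS 1 to library TLI/ATS 2, transcripts under 1000 bases had a median log2 ratio of -0.68 (741 genes) and transcripts of 4000 to 6000 bases one of 0.41 (2040 genes). Over 9155 genes Spearman's rho with length was 0.588 within TLI/ATS and -0.112 within UNT, across genes, which are not independent replicates. Some calls that depend on this trend are named beside the result, and the others are not listed.

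**Figure D1:**
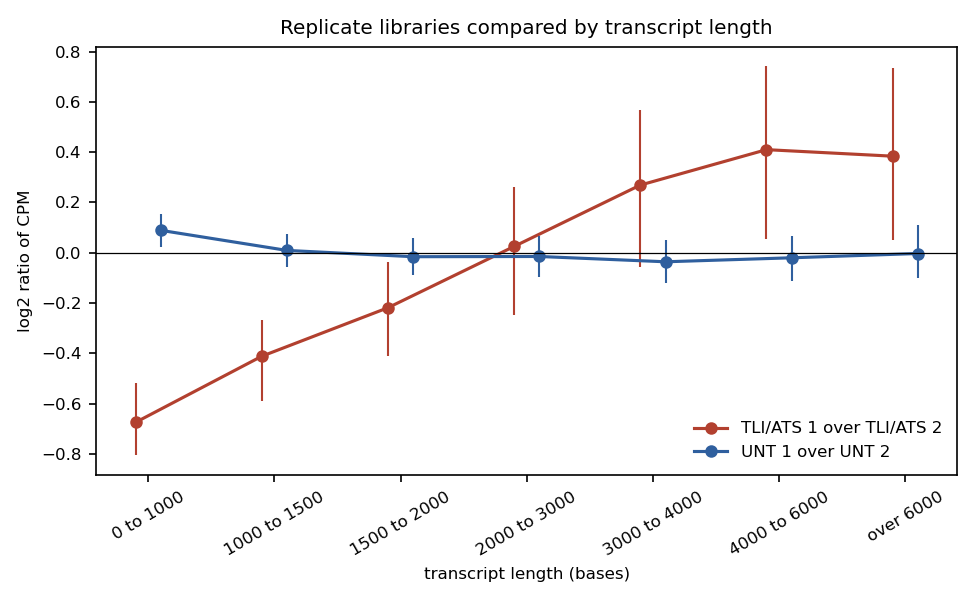
Replicate libraries compared by transcript length. Points are median log2 ratios of CPM between the libraries of a group for genes binned by transcript length in bases, and bars span the quartiles. The TLI/ATS pair climbs across the bins while the UNT pair stays close to 0.

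Of 17236 genes that passed the filter on low counts, 465 (2.70%) passed edgeR's quasi-likelihood test at a Benjamini-Hochberg adjusted p under 0.05. After TLI/ATS 86 of them were higher (0.499% of genes tested) and 379 lower (2.20%). The median log2 fold change of all genes tested was 0.02. An unadjusted p under 0.05 was reached by 2705 of the 17236, the share to set beside the counts at that level given for lists below. Genes called higher had a median change of 2.93 on the log2 scale and genes called lower a median size of 3.82, and 67 of the 86 and 306 of the 379 were over 4-fold apart. These include 7 higher genes at 0 in both UNT libraries and 63 lower genes at 0 in both TLI/ATS libraries. Such genes passed the filter on low counts through the other group alone. With those genes at the bound that 3 counts over the group give, the medians were 2.93 and 3.82 and the counts 67 and 306. Immunoglobulin and T cell receptor segments made up 2 of the higher and 47 of the lower calls. Genes from lists that mark lymphocytes or plasmacytoid dendritic cells made up another 66 of the lower calls, and genes from a macrophage list made up 13 of the higher calls. The groups did not overlap for any of the 465 genes, as for 47.5% of all genes tested. DESeq2 called 1320 genes (6.88% of those it tested), among them all 465, with 33.0% of its calls higher against 18.5% in edgeR. After the length and GC trends were taken out, edgeR called 607 genes (3.54%), 412 of them shared with the 465, and 30.3% were higher. Of the genes each setting tested, DESeq2 called 2.27% higher and 4.61% lower, limma-voom 0.708% higher and 3.42% lower, and edgeR with both trends taken out 1.07% higher and 2.47% lower. With lists of other cells left out of the test, edgeR called 0.256% higher and 1.29% lower.

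**Figure D2:**
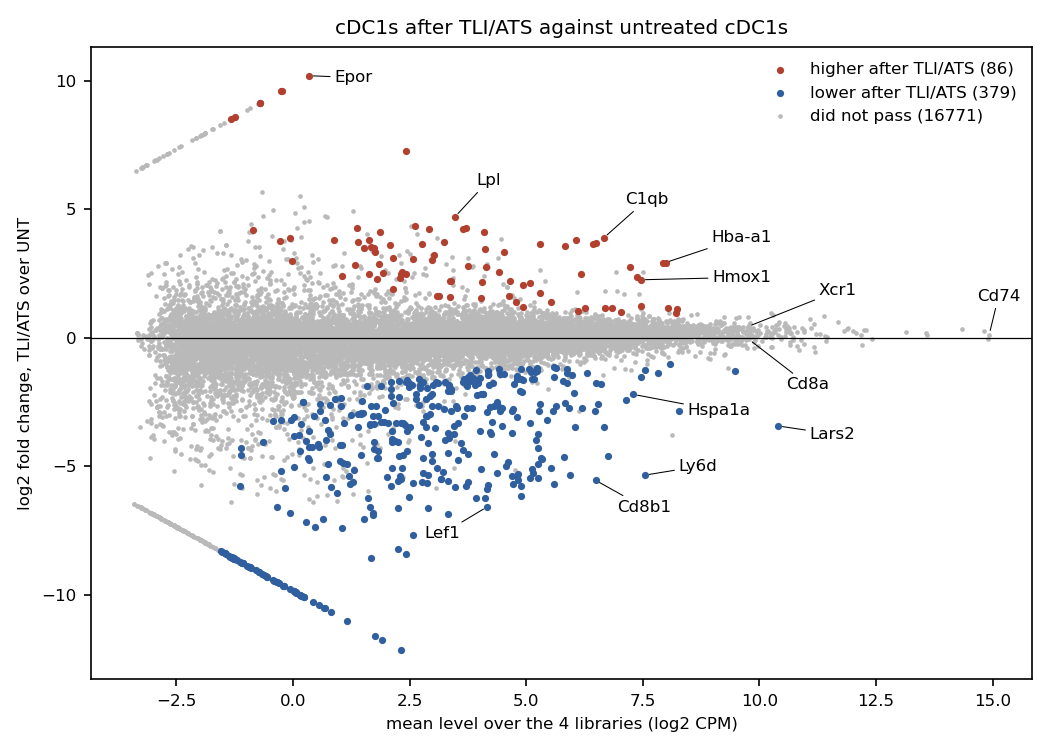
Log2 fold change of TLI/ATS over UNT (vertical axis) against the mean level in log2 CPM (horizontal axis), 1 point per gene tested. Red points (86) were higher and blue points (379) lower after TLI/ATS. The straight outer lines are genes with no count in one group, whose fitted fold change depends on a prior count and is no measurement. Xcr1, Cd8a and Cd74 lie near 0 at high levels.

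RNA of Xcr1 and Cd8a was present in both groups, which were sorted on the products of these genes, so the gate itself selects for it. Xcr1, the chemokine receptor that defines cDC1s, stood at 1025 and 963 CPM in the TLI/ATS libraries, against 745 and 719 CPM in the UNT libraries. Cd8a, whose product is used in the gate, stood at 780 and 933 CPM in TLI/ATS cDC1s, against 893 and 895 CPM in UNT cDC1s. The Xcr1 groups did not overlap and the Cd8a groups did, and neither gene passed the test (log2 fold change 0.44 ± 0.15 SE with adjusted p = 0.256, and -0.06 ± 0.17 with adjusted p = 0.921). Sirpa, the receptor that marks the cDC2 lineage, had 28.3 and 39.9 CPM after TLI/ATS, against 11.9 and 40.0 CPM in UNT, so the UNT libraries themselves lay far apart. Clec9a, a receptor for the actin of dead cells, stood at 275 and 245 CPM in TLI/ATS, against 256 and 221 CPM in UNT.

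Of 20 surface genes of cDC1s none passed edgeR's test (6 had an unadjusted p under 0.05, and DESeq2 called 1 higher and 1 lower). The list median was 0.23, beside 0.02 for all genes. Itgae, the integrin chain CD103, had 343 and 183 CPM after TLI/ATS, against 80.7 and 79.3 CPM in UNT. Both TLI/ATS values lay well above both UNT values, but the TLI/ATS libraries also lay apart from each other, and the adjusted p was 0.0805. With the length and GC trends taken out, Itgae passed. Cd207, the lectin langerin of a subset of cDC1s, is not a member of this list. Cd207 had 144 and 241 CPM in TLI/ATS, against 52.3 and 54.8 CPM in UNT (1.84 ± 0.29, adjusted p = 0.0501), and also passed under that correction. Among 18 intracellular genes of cDC1s found in the table, Sept3, a septin of the cytoskeleton, rose, and no member fell. Sept3 had 148 and 138 CPM in TLI/ATS, against 63.5 and 63.4 CPM in UNT (1.17 ± 0.16, adjusted p = 0.0337). Naaa, a lysosomal amidase that is among the most cDC1-restricted genes, had 3513 and 3358 CPM in TLI/ATS, against 1896 and 1936 CPM in UNT. Its groups lay well apart and its adjusted p was 0.0614. Wdfy4, needed for cross-presentation, had 873 and 474 CPM after TLI/ATS, against 506 and 449 CPM in UNT, and Rab7b, a small GTPase of lysosomes, 389 and 403 CPM against 238 and 245 CPM. Neither passed. When UNT 1 was left out the call ended for Sept3 (adjusted p = 0.313). With UNT 2 removed, no call was made for Sept3 (adjusted p = 0.344). In these edgeR fits the lone library of a group is assumed to vary like the pair of the other.

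Among 25 regulators of dendritic cell fate, Spib and Tcf4 fell and none rose. Both factors drive the plasmacytoid lineage, and Tcf4 is also counted in the plasmacytoid list, of which 16 of 20 members fell. Spib had 10.8 and 6.34 CPM in TLI/ATS, against 72.8 and 85.0 CPM in UNT (-3.20 ± 0.32, adjusted p = 0.0173). Tcf4 had 33.0 and 34.8 CPM in TLI/ATS, against 91.7 and 92.0 CPM in UNT (-1.44 ± 0.16, adjusted p = 0.0214), and did not pass with the length trend alone taken out. The factors that specify cDC1s did not pass. Irf8 had 4126 and 4534 CPM after TLI/ATS, against 3240 and 3415 CPM in UNT, Batf3 had 70.4 and 114 CPM against 74.2 and 73.9 CPM, and Id2 had 1257 and 2029 CPM against 1464 and 1366 CPM. For Batf3 and Id2 the groups overlapped. Calls that did not hold without UNT 1 were those of Tcf4 (adjusted p = 0.0774). Without UNT 2 the call ended for Tcf4 (adjusted p = 0.102).

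Epor was read in both TLI/ATS libraries and in neither UNT library. Epor (ENSMUSG00000006235, GRCm38 chromosome 9, 21958897 to 21963506, minus strand) had 236 and 127 counts after TLI/ATS (3.02 and 2.07 CPM), against 0 and 0 counts in UNT. Against a floor of 3 counts over the UNT group it was at least 78.6-fold higher (adjusted p = 0.0223). It passed the filter on low counts through the TLI/ATS libraries alone. In these bulk libraries, fewer cells that express a gene and less of its RNA per cell cannot be told apart, here and for every gene below. Its promoter is printed because the gene had reads in TLI/ATS cDC1s only. It spans 250 bases before to 50 after the RefSeq start (chr9:21963527-21963826, minus strand, GRCm38.p6), and the capitals mark the letters AGATAA, read here on the opposite strand, which is the core bound by GATA factors such as GATA1 of red cell precursors. Searched on both strands, these letters occur in 11.2% of 32851 mouse promoter windows of the same length, and in this window 54 bases before the start.
Epor: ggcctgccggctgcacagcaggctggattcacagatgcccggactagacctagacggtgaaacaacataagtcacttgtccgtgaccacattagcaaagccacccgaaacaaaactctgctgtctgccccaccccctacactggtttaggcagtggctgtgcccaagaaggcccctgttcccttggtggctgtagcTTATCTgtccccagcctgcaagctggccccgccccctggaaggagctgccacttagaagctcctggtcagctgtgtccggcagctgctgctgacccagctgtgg

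Of 22 genes of the EpoR and JAK-STAT5 list, Epor rose, and Pim2 and Ccnd2 fell (median 0.03). Jak2, the kinase of the receptor, had 228 and 113 CPM in TLI/ATS, against 149 and 153 CPM in UNT, so the UNT values lay between the TLI/ATS values. Stat5a had 54.9 and 30.8 CPM in TLI/ATS, against 51.2 and 43.1 CPM in UNT, again with overlap. Pim2, a survival kinase induced by STAT5, had 13.7 and 15.5 CPM in TLI/ATS, against 43.6 and 45.0 CPM in UNT (-1.61 ± 0.19, adjusted p = 0.0234). Ccnd2, a cyclin of the G1 phase, had 20.4 and 19.7 CPM in TLI/ATS, against 46.2 and 47.4 CPM in UNT (-1.22 ± 0.17, adjusted p = 0.0369). The Pim2 and Ccnd2 groups were each tight and far apart, but Ccnd2 lost its call when the length trend was taken out. Socs2, another STAT5 target, had 18.4 and 25 CPM in TLI/ATS, against 41.5 and 39.3 CPM in UNT (adjusted p = 0.137). No call was left without UNT 1 for Ccnd2 (adjusted p = 0.221). Leaving out UNT 2 ended the call for Ccnd2 (adjusted p = 0.286) and Pim2 (adjusted p = 0.0854).

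**Figure D3:**
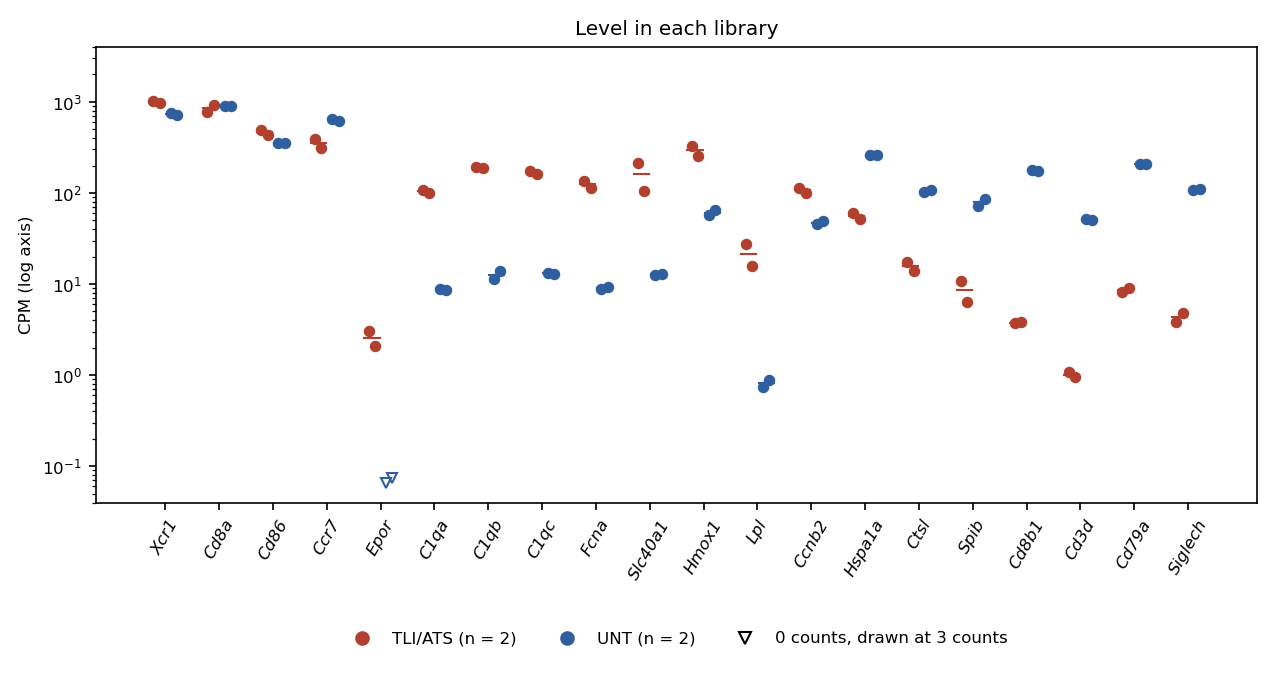
Level of 20 named genes in each library, in CPM on a log axis. Red points are the 2 TLI/ATS libraries and blue points the 2 UNT libraries, with group means as short lines, and open triangles mark 0 counts drawn at the floor of 3 counts. Epor, the C1q genes, Fcna, Slc40a1, Hmox1 and Lpl are higher after TLI/ATS, while Cd8b1, Cd3d, Cd79a and Siglech are lower and Cd8a overlaps between groups.

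Antigen presentation and the signals given to T cells held no gene past edgeR's threshold. Among 22 genes of MHC class I presentation 0 passed (3 at an unadjusted p under 0.05, 2 lower in DESeq2, median 0.16, log2 fold changes from -0.78 to 0.45). Among 19 genes of MHC class II presentation 0 passed (2 at an unadjusted p under 0.05, 0 in DESeq2, median 0.09, from -0.97 to 0.56). Cd74, the invariant chain, had 28014 and 36993 CPM in TLI/ATS, against 29285 and 30234 CPM in UNT. H2-Ab1, H2-Aa and H2-Eb1 lay between 10714 and 35975 CPM in TLI/ATS, against 11415 to 26409 CPM in UNT. B2m, the light chain of class I, had 3743 and 4737 CPM in TLI/ATS, against 5275 and 4965 CPM in UNT, and H2-K1 and H2-D1 had log2 fold changes of -0.30 and -0.03. None of these class I or class II genes lay more than 1 log2 unit from its UNT level, and a p above the threshold does not show that they were equal.

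Of 23 co-stimulatory and checkpoint ligands 0 passed (4 at an unadjusted p under 0.05, 0 in DESeq2, 1 higher in limma-voom, median -0.04). Cd86, a ligand of CD28, had 495 and 436 CPM in TLI/ATS, against 353 and 352 CPM in UNT. Cd80 had 16.7 and 11.7 CPM against 17.0 and 19.0 CPM, and Cd40 had 48.5 and 50.9 CPM against 52.4 and 52.9 CPM. Cd274, the checkpoint ligand PD-L1, had 39.7 and 19.2 CPM in TLI/ATS, against 28.9 and 27.7 CPM in UNT. The TLI/ATS values bracketed the UNT values, and the fold change depended on the library kept: it was -0.55 without library TLI/ATS 1. Among 20 tested cytokine genes 0 passed (5 at an unadjusted p under 0.05, 2 higher and 1 lower in DESeq2, median 0.27). Il12b, a chain of interleukin 12, had 93.0 and 77.7 CPM in TLI/ATS, against 126 and 135 CPM in UNT (adjusted p = 0.186). Il12a had 0 and 0.212 CPM against 1.62 and 2.53 CPM (adjusted p = 0.204). Il10, which restrains T cells, stood below 1 CPM in all 4 libraries.

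Genes by which dendritic cells induce regulatory T cells were equally without calls in edgeR. Of 18 tested genes of TGF-beta activation and signalling 0 passed (2 at an unadjusted p under 0.05, 1 lower in DESeq2, median -0.08), and Itgb8 and Itgb6, whose integrins release active TGF-beta, were too low to test. Tgfb1 had 188 and 175 CPM in TLI/ATS, against 210 and 210 CPM in UNT. Of 16 tested enzymes of retinoic acid, tryptophan and arginine metabolism 0 passed (3 at an unadjusted p under 0.05, 2 higher and 2 lower in DESeq2, median -0.33). Aldh1a2, which makes retinoic acid, had 4.16 and 1.22 CPM in TLI/ATS, against 4.04 and 5.22 CPM in UNT. Entpd1, the ectoenzyme CD39 that degrades extracellular ATP, had 99.6 and 80.7 CPM in TLI/ATS, against 43.7 and 42.4 CPM in UNT (1.07 ± 0.19, adjusted p = 0.0612), and passed with the length and GC trends taken out. Of 19 Toll-like receptors and adaptors 0 passed (7 at an unadjusted p under 0.05, 2 higher and 2 lower in DESeq2, median 0.10). Tlr3, the receptor for double-stranded RNA, had 345 and 186 CPM in TLI/ATS, against 161 and 155 CPM in UNT (0.75 ± 0.32, adjusted p = 0.361).

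The classical complement genes rose together. C1qa, C1qb and C1qc encode the 3 chains of C1q, which coats dying cells, and are neighbours on chromosome 4 (GRCm38, 136880129 to 136898803, minus strand). C1qa had 109 and 101 CPM in TLI/ATS, against 8.83 and 8.70 CPM in UNT (3.58 ± 0.18, adjusted p = 0.0039). C1qb had 194 and 187 CPM against 11.5 and 14 CPM, and C1qc had 176 and 161 CPM against 13.1 and 13 CPM (3.69 ± 0.18). Fcna, a ficolin that binds sugars on microbes, had 136 and 114 CPM in TLI/ATS, against 8.73 and 9.24 CPM in UNT (3.80 ± 0.20, adjusted p = 0.0039). For each of these genes the libraries of a group lay close together and the groups lay far apart. The promoters of C1qb (chr4:136886151-136886450), C1qc (chr4:136892865-136893164) and Fcna (chr2:25627925-25628224, all minus strand, RefSeq on GRCm38.p6) are printed because these genes moved together, with GAGGAA, a core bound by the myeloid factor PU.1, in capitals. On both strands these letters occur in 28.3% of promoter windows, so a match in one window is common. C1qa moved with these genes, but its promoter is not printed, so the windows shown are not the whole set. C1qb held 1 match, 30 bases before the start, C1qc held 1 on the opposite strand, 193 bases before the start, and Fcna held 4. A match is a description of the letters and does not show a factor bound there.
C1qb: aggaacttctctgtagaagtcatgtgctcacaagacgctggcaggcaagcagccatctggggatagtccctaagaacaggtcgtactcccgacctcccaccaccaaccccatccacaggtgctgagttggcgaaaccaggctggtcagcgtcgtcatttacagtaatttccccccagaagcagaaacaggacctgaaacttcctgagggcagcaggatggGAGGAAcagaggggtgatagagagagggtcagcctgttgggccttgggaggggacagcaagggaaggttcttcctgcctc
C1qc: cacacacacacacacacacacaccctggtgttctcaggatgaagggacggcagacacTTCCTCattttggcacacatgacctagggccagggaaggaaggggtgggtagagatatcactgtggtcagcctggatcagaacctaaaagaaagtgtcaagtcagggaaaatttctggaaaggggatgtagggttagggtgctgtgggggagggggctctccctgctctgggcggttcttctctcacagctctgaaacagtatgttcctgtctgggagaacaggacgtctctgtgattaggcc
Fcna: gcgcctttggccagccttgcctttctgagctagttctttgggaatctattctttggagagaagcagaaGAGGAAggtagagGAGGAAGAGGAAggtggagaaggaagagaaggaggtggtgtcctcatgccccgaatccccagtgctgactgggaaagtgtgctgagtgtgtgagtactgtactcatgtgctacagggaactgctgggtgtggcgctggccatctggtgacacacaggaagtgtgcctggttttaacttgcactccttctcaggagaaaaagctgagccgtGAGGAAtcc

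Of 13 tested genes of the complement, collectin and pentraxin list, these 4 rose and Cd55 fell (median 1.59). Cd55, which dissolves complement convertases on cell surfaces, had 1.15 and 1.17 CPM in TLI/ATS, against 22.3 and 25.2 CPM in UNT (-4.35 ± 0.24, adjusted p = 0.00411). Cfp, properdin of the alternative pathway, had 298 and 255 CPM in TLI/ATS, against 245 and 241 CPM in UNT and did not pass. The 4 risen genes also belong to the list of macrophage genes, 20 of whose 27 members stand in another list too. Of 26 tested members of that macrophage list, 13 rose and none fell (median 2.89), and their summed level was 2028 and 1395 CPM in TLI/ATS, against 286 and 305 CPM in UNT. Adgre1, the surface marker F4/80, rose (45.7 and 27.5 CPM in TLI/ATS, against 5.60 and 6.95 CPM in UNT, 2.55 ± 0.33), as did Spic, the factor of red pulp macrophages (60.4 and 49.4 CPM, against 13.1 and 12.1 CPM, 2.12 ± 0.20). Csf1r (1.80 ± 0.45), Mertk (4.03 ± 0.70), Vcam1 (1.82 ± 0.33), Cd163 (2.53 ± 0.60), Timd4 (2.52 ± 0.47) and Mrc1 (2.80 ± 0.51) had large differences and did not pass edgeR. All of them passed DESeq2, and Vcam1 and Mrc1 also passed edgeR with the length and GC trends taken out. What these macrophage genes contribute to the rises described here was not tested. With the lists of other cells left out of the test, the 4 complement genes are themselves left out, and Cd55 passed (adjusted p = 0.0152).

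Receptors for dying cells had edgeR calls in both directions, with a list median above that of all genes. Of 22 tested receptors and bridges for apoptotic cells and scavenged ligands, Axl and Cd5l rose, and Havcr1 and Itgb3 fell (median 1.83). DESeq2 called 11 higher and 3 lower. Axl, a receptor tyrosine kinase for coated dying cells, had 107 and 37.7 CPM in TLI/ATS, against 5.22 and 6.17 CPM in UNT (3.67 ± 0.56, adjusted p = 0.0473), and did not pass limma-voom, which called 711 genes (4.13%). Its TLI/ATS libraries lay far apart from each other. Axl and Cd5l are also in the macrophage list. Cd5l, a secreted scavenger protein of macrophages, had 38.1 and 25.1 CPM in TLI/ATS, against 2.22 and 3.57 CPM in UNT (3.45 ± 0.37, adjusted p = 0.0210). Havcr1, the phosphatidylserine receptor TIM-1, had 0.422 and 0.832 CPM in TLI/ATS, against 4.52 and 5.20 CPM in UNT, and Itgb3, a chain of the vitronectin receptor, 0.717 and 0.375 CPM against 4.66 and 6.71 CPM. Tyro3 had 0 counts in both TLI/ATS libraries, against 0.207 and 0.189 CPM in UNT (adjusted p = 0.134).

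Of 13 tested Fc receptors, the IgG receptors Fcgr1, Fcgr3 and Fcgr4 rose, and Fcer2a and Fcmr fell (median -0.24). Fcgr3 had 31.9 and 29.3 CPM in TLI/ATS, against 4.31 and 4.63 CPM in UNT (2.77 ± 0.21, adjusted p = 0.00811). Fcgr1, the high-affinity receptor, had 6.26 and 5.24 CPM against 0.477 and 0.331 CPM (3.82 ± 0.36). Fcgr4 had 12.3 and 13.5 CPM against 3.94 and 4.35 CPM (1.64 ± 0.23). The inhibitory receptor Fcgr2b, with 44.7 and 68.9 CPM in TLI/ATS, against 64.8 and 69.2 CPM in UNT, overlapped between groups. Fcer2a, the IgE receptor CD23, had 0.499 and 0.391 CPM in TLI/ATS, against 31.3 and 36.8 CPM in UNT, and Fcmr, the IgM receptor of lymphocytes, had 2.39 and 1.48 CPM against 70.0 and 64.6 CPM (-5.11 ± 0.32). Fcgr1 and Fcgr4 are also counted among monocyte-derived cell genes and Fcer2a among B cell genes. When UNT 1 was left out the call ended for Fcgr4 (adjusted p = 0.229). With UNT 2 removed, no call was made for Fcgr4 (adjusted p = 0.185).

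Of 19 tested iron and haem genes, Hmox1, Slc40a1 and Trf rose, none fell and the other members did not pass (median 0.33). Hmox1, haem oxygenase 1, which opens the haem ring and frees its iron, had 329 and 256 CPM in TLI/ATS, against 57.7 and 64.3 CPM in UNT (2.26 ± 0.21, adjusted p = 0.0139). Slc40a1, ferroportin, the only known iron exporter, had 215 and 106 CPM in TLI/ATS, against 12.5 and 13 CPM in UNT (3.65 ± 0.40, adjusted p = 0.0210). Trf, transferrin, had 276 and 216 CPM against 102 and 106 CPM (1.25 ± 0.19, adjusted p = 0.0476), and 63.5% of its exon bases are shared with a predicted gene. Slc40a1 was the least even of the 3 between TLI/ATS libraries. Blvrb, a biliverdin reductase, had 30.9 and 35.9 CPM in TLI/ATS, against 14 and 14.6 CPM in UNT (1.22 ± 0.20, adjusted p = 0.0504), and passed with the length trend taken out. Blvra had 67.9 and 85.9 CPM against 48.3 and 52.3 CPM and did not pass. Ftl1, the light ferritin chain and one of the 15 most abundant named transcripts, had 4731 and 6240 CPM in TLI/ATS, against 4411 and 4439 CPM in UNT. Erythroid genes stood higher in the same libraries: of 21 tested 7 rose and none fell (median 2.38), with a summed level of 1591 and 1554 CPM in TLI/ATS, against 289 and 296 CPM in UNT. The globin transcript Hba-a1 had 449 and 448 CPM in TLI/ATS, against 61.7 and 56.0 CPM in UNT (2.93 ± 0.17, adjusted p = 0.00461), and Hba-a2, Hbb-bs and Hbb-bt rose by 2.93, 2.38 and 2.77. Hba-a1 and Hba-a2 are near-identical and can exchange reads. Klf1, the erythroid factor, had 2.07 and 1.53 CPM in TLI/ATS, against 0.145 and 0.0945 CPM in UNT. Klf1 passed the filter on low counts through the TLI/ATS libraries alone. The part of erythroid or macrophage RNA in the rise of Hmox1 and Slc40a1 was not tested. Calls that did not hold without UNT 1 were those of Trf (adjusted p = 0.271). Without UNT 2 the call ended for Klf1 (adjusted p = 0.0565) and Trf (adjusted p = 0.260).

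Lipid and prostanoid genes held several of the largest rises. Of 23 tested genes of lipid handling, Lpl, Nr1h3 and Fabp4 rose and Pltp fell (median 0.37). Lpl, lipoprotein lipase, had 27.2 and 15.7 CPM in TLI/ATS, against 0.746 and 0.875 CPM in UNT (4.72 ± 0.39, adjusted p = 0.0110), the largest rise among the genes named by size of change. Nr1h3, the sterol sensor LXR alpha, had 8.85 and 8.55 CPM against 1.18 and 1.73 CPM (2.58 ± 0.31). Abca1 and Abcg1, sterol exporters it can switch on, were not called higher. Abca1 had 1.64 and 0.375 CPM in TLI/ATS, against 2.26 and 1.63 CPM in UNT, and Abcg1 42.9 and 41.4 CPM against 79.0 and 65.8 CPM (adjusted p = 0.116). Whether LXR alpha was active was not tested. Fabp4, a fatty acid carrier, had 1.55 and 1.52 CPM against 0.145 and 0.0709 CPM, and passed the filter on low counts through the TLI/ATS libraries alone. Pltp, phospholipid transfer protein, had 4.66 and 2.74 CPM in TLI/ATS, against 77.2 and 66.8 CPM in UNT (-4.28 ± 0.33, adjusted p = 0.00931). Macrophage genes were higher in the same libraries (13 of 26 rose, with a summed level of 2028 and 1395 CPM in TLI/ATS, against 286 and 305 CPM in UNT), and their part in the lipid genes was not tested. No call was left without UNT 2 for Fabp4 (adjusted p = 0.0912).

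Of 18 tested genes of prostanoids and leukotrienes 3 rose and none fell (median 0.62). Ptgs1, cyclooxygenase 1, had 20.9 and 14.1 CPM in TLI/ATS, against 1.33 and 1.32 CPM in UNT (3.72 ± 0.31, adjusted p = 0.0110). Ptgs2, the inducible cyclooxygenase, stood the other way, with 5.59 and 3.21 CPM in TLI/ATS, against 13.5 and 15.9 CPM in UNT (-1.73 ± 0.34, adjusted p = 0.0833), and was called lower with the length and GC trends taken out. Hpgd, the dehydrogenase that inactivates prostaglandins, had 52.6 and 46.0 CPM against 12.7 and 11.1 CPM (2.05 ± 0.20). Pla2g7, which degrades platelet-activating factor, had 30.1 and 24.4 CPM against 6.22 and 5.96 CPM (2.16 ± 0.22). Hpgd is also in the macrophage list.

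Lysosomal and oxidative killing genes had few calls, all lower. Of 23 tested cathepsins and hydrolases only Ctsl fell, and none rose (median 0.16). Ctsl, cathepsin L, had 17.6 and 13.9 CPM in TLI/ATS, against 102 and 107 CPM in UNT (-2.73 ± 0.20, adjusted p = 0.00811), with 26.8% of its exon bases shared with other genes. Its relatives Ctsb (1299 and 1083 CPM, against 1050 and 1086 CPM) and Ctsc (185 and 132 CPM, against 122 and 124 CPM) did not pass. Of 8 genes of the phagocyte oxidase 2 fell and none rose (median -0.25). Cybb, the catalytic chain NOX2, had 49.9 and 32.8 CPM in TLI/ATS, against 139 and 141 CPM in UNT (-1.76 ± 0.25, adjusted p = 0.0394). Hvcn1, a proton channel that sustains the oxidase, had 16.2 and 11 CPM against 82.1 and 89.6 CPM (-2.66 ± 0.25), with 44.2% of its exon bases shared. Cyba, the partner chain of NOX2, overlapped between groups (817 and 1283 CPM in TLI/ATS, against 964 and 956 CPM in UNT). B cell and plasmacytoid genes were lower in the same libraries (16 of 22 and 16 of 20 fell), and their part in the falls of Cybb, Hvcn1 and Ctsl was not tested.

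**Figure D4:**
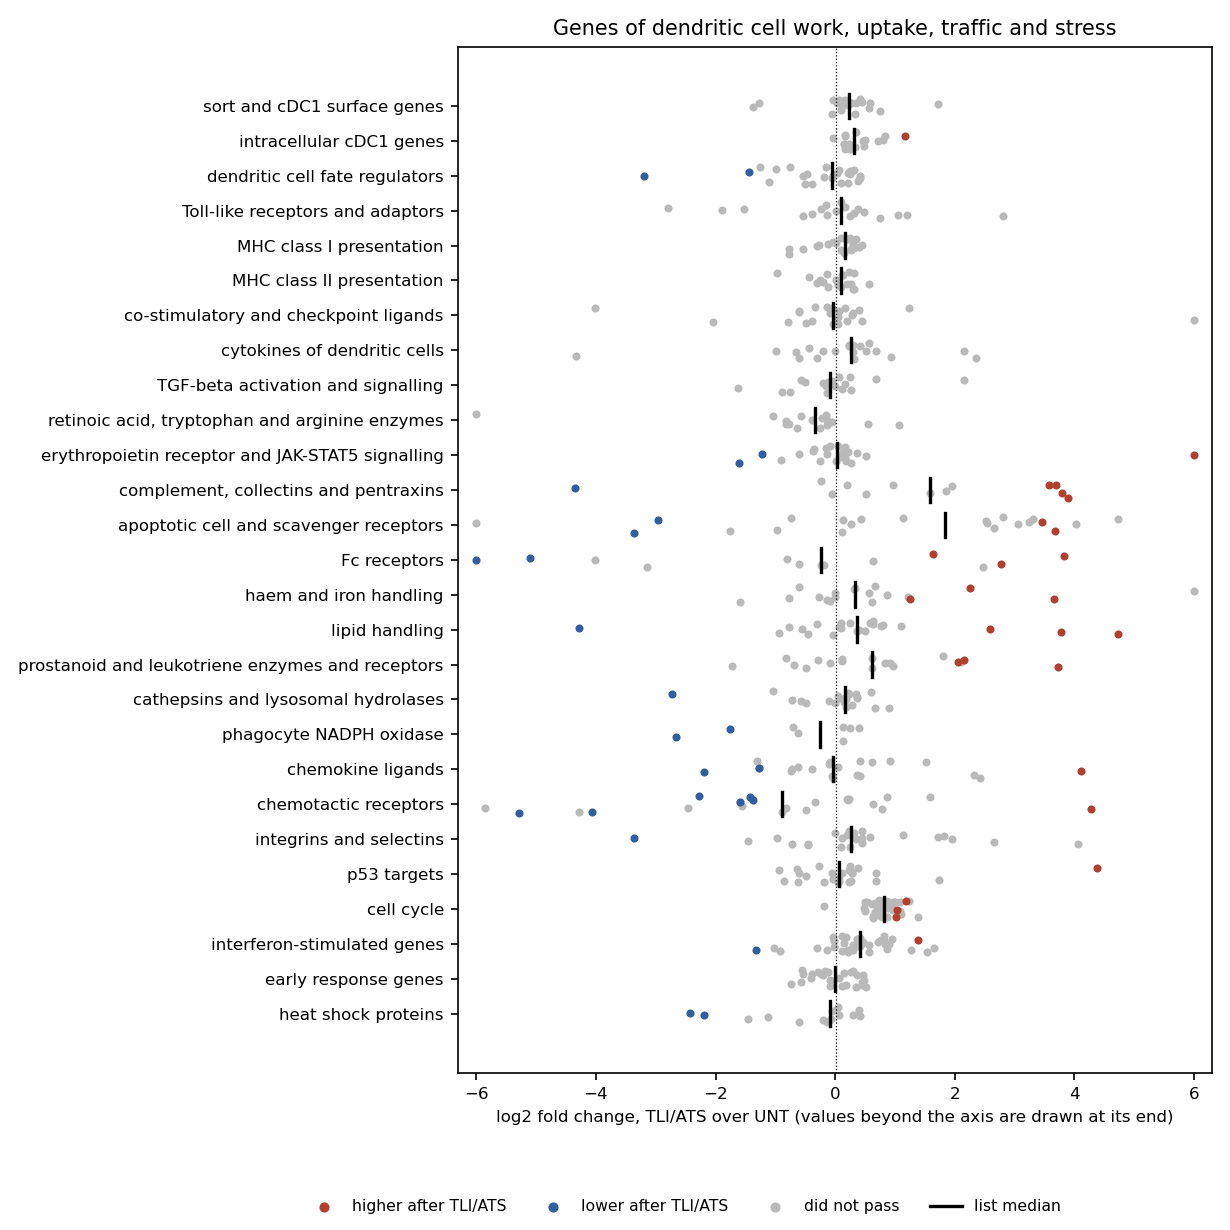
Log2 fold change of TLI/ATS over UNT for every tested member of 27 gene lists, 1 point per gene. Red points were higher and blue points lower after TLI/ATS, grey points did not pass, and black bars are list medians, with the median of all genes dotted. Lists of surface and intracellular cDC1 genes have medians of 0.23 and 0.32, class I and class II presentation 0.16 and 0.09, and the co-stimulatory list -0.04. The iron and lipid lists have medians of 0.33 and 0.37, and the complement list one of 1.59. The complement, iron and lipid lists also hold red points near 4. Members of the co-stimulatory list, none past the threshold, range from -4.02 to 7.41. Values beyond the axis are drawn at its end.

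Of 23 tested chemotactic receptors, Ccr3 rose and 6 fell (S1pr1, S1pr4, Cxcr6, Gpr183, Cx3cr1 and Cxcr4), with a median of -0.89. S1pr1, by which lymphocytes leave lymphoid organs, had 2.06 and 0.767 CPM in TLI/ATS, against 53.8 and 57.2 CPM in UNT (-5.28 ± 0.53, adjusted p = 0.0173). S1pr4 had 2.62 and 2.64 CPM against 12.1 and 13.3 CPM. Gpr183, a receptor for oxysterols that places dendritic cells within lymphoid tissue, had 29.0 and 36.1 CPM in TLI/ATS, against 84.3 and 83.4 CPM in UNT (-1.37 ± 0.19, adjusted p = 0.0360). Cxcr4 had 13.1 and 10.4 CPM against 31.3 and 31.6 CPM, and Cx3cr1 had 7.02 and 5.58 CPM against 19.2 and 19.0 CPM. In each case the groups lay far apart, although Cxcr4 also lost its call with the length trend taken out. Ccr7, the receptor that takes dendritic cells to the T cell zone, had 395 and 314 CPM in TLI/ATS, against 643 and 610 CPM in UNT (-0.82 ± 0.18, adjusted p = 0.109), and was called lower by DESeq2. Ccr3, the receptor for eotaxins on basophils and eosinophils, had 32.2 and 17.5 CPM in TLI/ATS, against 1.20 and 1.35 CPM in UNT (4.28 ± 0.40, adjusted p = 0.0144). Leaving out UNT 1 ended the call for Cx3cr1 (adjusted p = 0.114), Cxcr4 (adjusted p = 0.146) and Gpr183 (adjusted p = 0.122). When UNT 2 was left out the call ended for Cx3cr1 (adjusted p = 0.137), Cxcr4 (adjusted p = 0.189) and Gpr183 (adjusted p = 0.139).

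Among 22 tested chemokine ligands, Ccl24 rose, and Ccl5 and Xcl1 fell (median -0.04). Ccl24, eotaxin 2, a ligand of CCR3, had 7.97 and 5.77 CPM in TLI/ATS, against 0.435 and 0.355 CPM in UNT (4.11 ± 0.36, adjusted p = 0.0114). Ccl5 had 107 and 113 CPM against 272 and 257 CPM (-1.27 ± 0.16, adjusted p = 0.0267), and lost its call with the length trend taken out. Xcl1, the ligand of XCR1 made by NK and CD8 T cells, had 1.87 and 2.59 CPM in TLI/ATS, against 9.54 and 10.9 CPM in UNT (-2.19 ± 0.29, adjusted p = 0.0329). Ccl2, Ccl3 and Ccl4 did not pass, and Ccl4 overlapped between groups (167 and 250 CPM in TLI/ATS, against 211 and 194 CPM in UNT). Of 24 tested integrins and selectins only Itgb3 fell and none rose in edgeR, while DESeq2 called 5 higher and 2 lower. With UNT 1 removed, no call was made for Ccl5 (adjusted p = 0.170). Calls that did not hold without UNT 2 were those of Ccl5 (adjusted p = 0.147) and Xcl1 (adjusted p = 0.0607).

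Genes of dividing cells were higher as a list, though few passed edgeR's test. Of 46 cell cycle genes 3 rose (Ccnb2, Cdc20 and Rrm2) and none fell, with a median of 0.81 beside 0.02 for all genes. The groups did not overlap in the higher direction for 45 of the 46, against 22.5% of all genes tested. An unadjusted p under 0.05 in edgeR was reached by 43 of the 46, against 2705 of the 17236 genes tested. The number of calls moved with the method, with 33 higher in DESeq2 and 16 higher with the length and GC trends taken out. Rrm2, a chain of ribonucleotide reductase, had 173 and 177 CPM in TLI/ATS, against 86.9 and 87.1 CPM in UNT (1.01 ± 0.16, adjusted p = 0.0464). Ccnb2, a mitotic cyclin, had 113 and 101 CPM against 45.3 and 49.3 CPM (1.18 ± 0.17), and Cdc20, the activator of mitotic exit, had 92.3 and 93.1 CPM against 43.7 and 46.4 CPM (1.04 ± 0.16). Mki67, the proliferation antigen, had 81.5 and 66.0 CPM against 51.8 and 44.7 CPM (0.61 ± 0.20, adjusted p = 0.232). Erythroid genes were higher in the same libraries, as given above, and the part of such precursors in the cell cycle genes was not tested. Without UNT 1 the call ended for Ccnb2 (adjusted p = 0.376), Cdc20 (adjusted p = 0.546) and Rrm2 (adjusted p = 0.521). No call was left without UNT 2 for Ccnb2 (adjusted p = 0.277), Cdc20 (adjusted p = 0.442) and Rrm2 (adjusted p = 0.538).

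Few genes of stress responses passed edgeR's test. Of 27 tested p53 targets only Gdf15 rose (median 0.07), and Cdkn1a, Mdm2 and Bax did not pass. Gdf15, a secreted stress factor, had 12.4 and 10.9 CPM in TLI/ATS, against 0.809 and 0.307 CPM in UNT (4.37 ± 0.51, adjusted p = 0.0244). Cdkn1a, the cell cycle inhibitor p21, had 64.4 and 108 CPM against 73.1 and 72.6 CPM, with overlap. Of 38 interferon-stimulated genes Isg15 rose and Ifi27l2a fell (median 0.41). DESeq2 called 6 higher and 2 lower. Of the 38, 13 had an unadjusted p under 0.05 in edgeR, against 2705 of the 17236 genes tested. The groups did not overlap in the higher direction for 19 of the 38, against 22.5% of all genes tested. Isg15, a ubiquitin-like modifier, had 63.8 and 69.4 CPM in TLI/ATS, against 25.6 and 25.7 CPM in UNT (1.38 ± 0.17, adjusted p = 0.0257). Irf7, which amplifies the interferon response, had 215 and 168 CPM against 122 and 104 CPM and did not pass. Of 26 early response genes, which rise within minutes when tissue is handled, 0 passed edgeR (5 at an unadjusted p under 0.05, 1 lower in DESeq2, median -0.00). Fos had 4655 and 4335 CPM in TLI/ATS, against 3756 and 3751 CPM in UNT. Leaving out UNT 1 ended the call for Ifi27l2a (adjusted p = 0.228) and Isg15 (adjusted p = 0.188). When UNT 2 was left out the call ended for Ifi27l2a (adjusted p = 0.139) and Isg15 (adjusted p = 0.202).

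Of 16 heat shock proteins the inducible pair Hspa1a and Hspa1b fell and none rose (median -0.08). Hspa1a had 61.0 and 51.5 CPM in TLI/ATS, against 258 and 259 CPM in UNT (-2.20 ± 0.18, adjusted p = 0.00935). Hspa1b had 46.2 and 42.5 CPM against 237 and 239 CPM (-2.42 ± 0.17, adjusted p = 0.0064). Hspa8, the constitutive family member, had 949 and 1145 CPM in TLI/ATS, against 804 and 798 CPM in UNT and did not pass. Hspa1a and Hspa1b are near-identical and can exchange reads. Their promoters (chr17:34972107-34972406 and chr17:34959189-34959488, minus strand, RefSeq on GRCm38.p6) are printed to show how alike the pair is: 296 of 300 bases are the same (98.7%). The capitals mark GAANNTTC, the inverted half-sites of a heat shock element, which reads alike on both strands, occurs in 7.86% of promoter windows, and lies 104 bases before the start in each.
Hspa1a: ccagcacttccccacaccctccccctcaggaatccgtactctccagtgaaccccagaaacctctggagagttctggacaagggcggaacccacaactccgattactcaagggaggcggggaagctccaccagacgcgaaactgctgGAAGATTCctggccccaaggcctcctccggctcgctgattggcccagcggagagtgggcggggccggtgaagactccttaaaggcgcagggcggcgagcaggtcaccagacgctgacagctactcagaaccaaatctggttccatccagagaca
Hspa1b: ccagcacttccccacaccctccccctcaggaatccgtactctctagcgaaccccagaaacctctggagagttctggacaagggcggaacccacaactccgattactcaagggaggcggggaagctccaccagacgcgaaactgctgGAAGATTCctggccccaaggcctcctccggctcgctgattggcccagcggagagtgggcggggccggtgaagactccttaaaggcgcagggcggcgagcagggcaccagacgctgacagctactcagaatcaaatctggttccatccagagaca

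T cell genes were much lower in the TLI/ATS libraries. Of 25 genes of the T cell receptor complex and its signalling 20 fell and none rose (median -5.00), and of 18 T cell factors and GIMAP genes 14 fell and none rose (median -4.26). Cd3d had 1.07 and 0.946 CPM in TLI/ATS, against 52.1 and 50.9 CPM in UNT (-5.67 ± 0.23, adjusted p = 0.00377). Trac, the constant chain of the alpha receptor, had 1.59 and 1.79 CPM against 76.1 and 72.4 CPM, and Trbc2 had 1.82 and 1.88 CPM against 94.1 and 95.5 CPM. The defining genes Cd3d, Cd3e, Cd3g, Trac, Trbc1 and Trbc2 thus stood at 50.9 to 95.5 CPM in UNT and below 2 CPM after TLI/ATS. Summed over the receptor list, the level was 270 and 191 CPM in TLI/ATS, against 1152 and 1145 CPM in UNT. Lef1, a T cell factor, had 0.333 and 0.408 CPM against 35.5 and 35.2 CPM, and Tcf7 5.66 and 3.07 CPM against 66.2 and 72.8 CPM. Foxp3, the factor of regulatory T cells, was below 1 CPM in all 4 libraries.

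The partners of the CD8 receptor parted. Cd8b1, the beta chain that T cells join to CD8 alpha and cDC1s lack, had 3.71 and 3.82 CPM in TLI/ATS, against 177 and 176 CPM in UNT (-5.55 ± 0.19, adjusted p = 0.00377). Cd8a, which both cell types express, overlapped between groups, as given above. The genes lie side by side on chromosome 6 (Cd8b1 at 71322788 to 71337494 and Cd8a at 71373427 to 71379173, plus strand). Several genes that fell after TLI/ATS, among them Xcl1, S1pr1, Cxcr6 and Fcmr, are known in lymphocytes as well, and the part of lymphocyte RNA in their falls was not tested.

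Of 22 B cell genes 16 fell and none rose (median -3.39). Their summed level, 2062 and 3795 CPM in TLI/ATS, lay on both sides of the 2713 and 2710 CPM in UNT. Cd79a, a chain of the B cell receptor, had 8.27 and 9.0 CPM in TLI/ATS, against 207 and 206 CPM in UNT (-4.58 ± 0.18, adjusted p = 0.00377), and Cd79b had 10.3 and 11.4 CPM against 120 and 121 CPM. Ms4a1, which encodes CD20, had 26.7 and 20.7 CPM against 105 and 107 CPM. Of 20 plasmacytoid dendritic cell genes 16 fell and none rose (median -2.66), and their summed level was 1444 and 1421 CPM in TLI/ATS, against 2514 and 2524 CPM in UNT. Siglech had 3.81 and 4.80 CPM against 107 and 110 CPM (-4.65 ± 0.22), Ly6d 6.49 and 11.6 CPM against 374 and 358 CPM, Klk1 0.985 and 0.652 CPM against 59.5 and 57.7 CPM, and Smim5 0.576 and 0.603 CPM against 34.8 and 35 CPM. Klk1b27 had 0 counts in both TLI/ATS libraries, against 343 and 331 counts in UNT. It was at least 346-fold lower against the floor of 3 counts over the TLI/ATS group, and passed the filter through the UNT libraries alone. Bst2, which plasmacytoid cells share with interferon-treated cells, had 105 and 146 CPM against 256 and 258 CPM (adjusted p = 0.0945). Of 18 tested NK and innate lymphoid genes 5 fell (Nkg7, Ifng, Il2rb, Gata3 and Xcl1, all of which T cells can also express) and none rose (median -2.67). Nkg7 had 3.33 and 2.59 CPM against 80.4 and 75.5 CPM (-4.72 ± 0.23), while Ncr1, the defining receptor of NK cells, stood at 1.32 and 1.08 CPM in TLI/ATS, against 0.995 and 1.42 CPM in UNT. Klrb1c, the NK marker NK1.1, stood no higher than 1.24 CPM in any library.

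**Figure D5:**
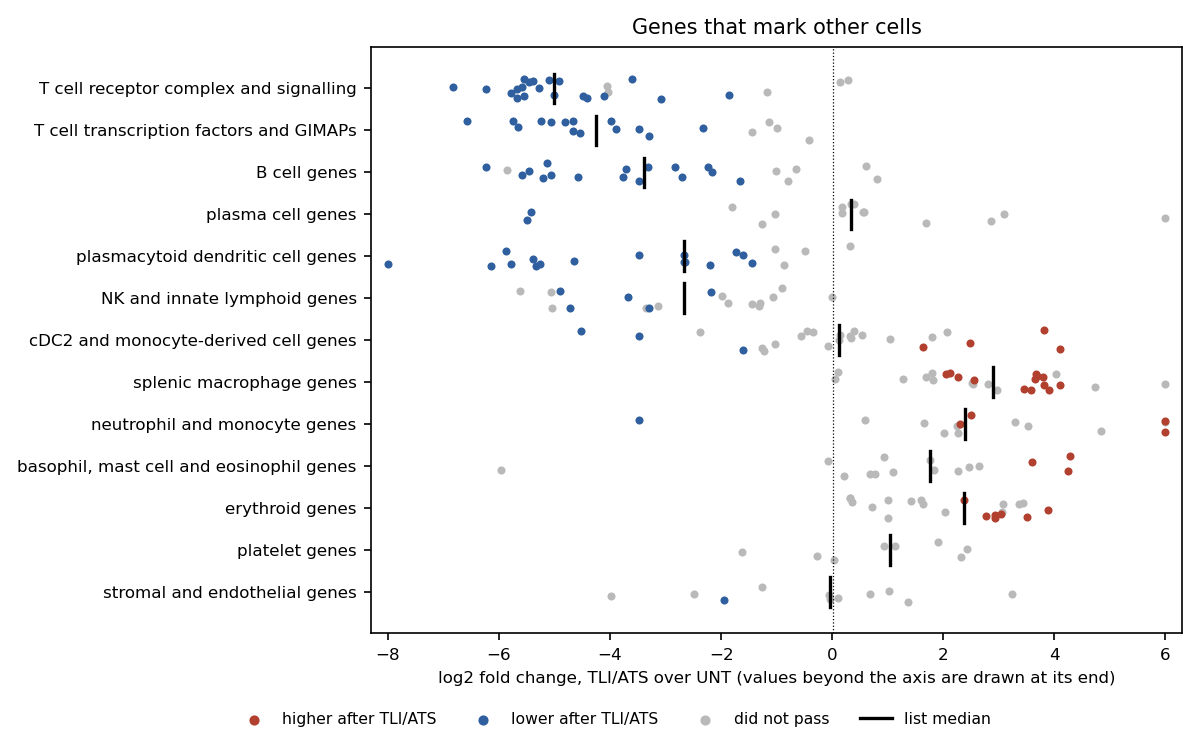
Log2 fold change of TLI/ATS over UNT for every tested member of 13 lists of genes that mark other cells, drawn as in the plot of dendritic cell lists. T cell, B cell, NK and plasmacytoid lists lie to the left and macrophage, neutrophil, basophil and erythroid lists to the right. The plasma cell list has a median of 0.34.

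Of 14 tested neutrophil and monocyte genes 4 rose and 1 fell (median 2.40). S100a8 had 4.89 and 6.65 CPM in TLI/ATS, against 1.06 and 1.28 CPM in UNT (2.30 ± 0.32, adjusted p = 0.0366), and S100a9 had 4.61 and 5.90 CPM against 0.788 and 1.06 CPM. Lcn2 had 69 and 97 counts in TLI/ATS, against 0 and 0 in UNT, and was at least 35.9-fold higher against 3 counts over the UNT group. Retnlg, with 55 and 55 counts against 0 and 0, was at least 23.8-fold higher, a call that ended with the length trend taken out. Lcn2 and Retnlg passed the filter on low counts through the TLI/ATS libraries alone. Ly6g, the defining neutrophil marker, had 0 and 12 counts in TLI/ATS, against 4 and 3 in UNT. Ly6c2, a surface protein of monocytes, plasmacytoid cells and T cells, fell, with 17.8 and 15.8 CPM in TLI/ATS, against 186 and 188 CPM in UNT (-3.47 ± 0.18, adjusted p = 0.0039). Of 15 tested basophil, mast cell and eosinophil genes, Ccr3, Mcpt8 and Prss34 rose (median 1.77). Mcpt8, a basophil protease, had 10.1 and 5.61 CPM in TLI/ATS, against 0.539 and 0.756 CPM in UNT, and Prss34, another, had 35.6 and 11.8 CPM against 1.18 and 1.32 CPM. The calls of Mcpt8 and Prss34 ended when the length trend was taken out. Cpa3, shared by basophils and mast cells, had 1.13 and 1.45 CPM against 0.270 and 0.260 CPM (adjusted p = 0.0806). With UNT 1 removed, no call was made for S100a8 (adjusted p = 0.108) and S100a9 (adjusted p = 0.0873). Calls that did not hold without UNT 2 were those of S100a8 (adjusted p = 0.0747).

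The remaining marker lists held few calls. Of 15 plasma cell genes Ighg2b and Igha fell and none rose (median 0.34). Igha had 0.294 and 0.489 CPM in TLI/ATS, against 17.8 and 17.5 CPM in UNT, while Jchain, the joining chain of secreted antibody, had 153 and 264 CPM against 67.6 and 61.2 CPM (1.69 ± 0.30, adjusted p = 0.0670). Of 24 genes of cDC2s and monocyte-derived cells 4 rose, among them Fcgr1, Clec4a3 and Fcgr4, and 3 fell (Dtx1, Ly6c2 and Cx3cr1), with a median of 0.13. Dtx1, a Notch regulator, had 1.14 and 1.13 CPM in TLI/ATS, against 27.8 and 24.1 CPM in UNT (-4.52 ± 0.24). Of 8 tested platelet genes 0 passed edgeR (6 at an unadjusted p under 0.05, 1 higher and 1 lower in DESeq2, median 1.04). Over all 17236 genes tested, 2705 reached that unadjusted level. Of 11 tested stromal and endothelial genes Kdr fell (-1.94 ± 0.26, adjusted p = 0.123 without UNT 2), and Col1a1, the defining collagen, had 0 counts in all 4 libraries. Without UNT 1 the call ended for Clec4a3 (adjusted p = 0.0535).

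Abundant transcripts past the threshold included several with no place in these lists. Anxa1, annexin A1, which limits inflammation, had 396 and 433 CPM in TLI/ATS, against 193 and 185 CPM in UNT (1.13 ± 0.16, adjusted p = 0.0360). Tgfbi, a matrix protein induced by TGF-beta, had 396 and 333 CPM against 163 and 166 CPM, and Olfm1, an olfactomedin, had 398 and 390 CPM against 197 and 202 CPM (0.98 ± 0.15).  Apol7c, an apolipoprotein L of cDC1s, had 392 and 435 CPM in TLI/ATS, against 993 and 1021 CPM in UNT (-1.28 ± 0.16, adjusted p = 0.0255). Il2rg, the shared chain of receptors for interleukins 2, 7 and 15, had 93.6 and 88.8 CPM against 261 and 265 CPM, and Shisa5 had 183 and 175 CPM against 355 and 367 CPM. Dapl1 had 0.230 and 0.0979 CPM in TLI/ATS, against 20.3 and 19.4 CPM in UNT (-6.86 ± 0.45), the largest fall among the genes named by size of change. Dapl1 reached the level of the filter on low counts in both UNT libraries but not in TLI/ATS 2. No call was left without UNT 1 for Anxa1 (adjusted p = 0.306), Apol7c (adjusted p = 0.112), Olfm1 (adjusted p = 0.570), Shisa5 (adjusted p = 0.340) and Tgfbi (adjusted p = 0.341). Leaving out UNT 2 ended the call for Anxa1 (adjusted p = 0.399), Apol7c (adjusted p = 0.168), Il2rg (adjusted p = 0.0644), Olfm1 (adjusted p = 0.532), Shisa5 (adjusted p = 0.448) and Tgfbi (adjusted p = 0.346).

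The most abundant gene that fell was Lars2, which encodes the leucyl-tRNA synthetase of mitochondria. It had 155 and 305 CPM in TLI/ATS, against 2624 and 2340 CPM in UNT (-3.43 ± 0.37, adjusted p = 0.0210), and its call ended with the length and GC trends taken out. Small structural RNAs, chosen after their values were seen, were lower beside it. Rn7s1 and Rn7s2, copies of the signal recognition particle RNA, fell by 3.44 and 3.28 on the log2 scale, and Rn7sk, a regulator of transcription elongation, had 2.29 and 2.89 CPM against 9.29 and 8.04 CPM. The part of library preparation in these differences was not tested. Among the 15 most abundant named genes none passed. Tmsb4x, thymosin beta 4, showed how far the TLI/ATS libraries can differ from each other, with 13548 and 45984 CPM, against 31917 and 30159 CPM in UNT. Cst3, Psap, Ppt1, Cfl1, Actb and Fos, also among the 15, had log2 fold changes from 0.17 to 0.35. When TLI/ATS 1 was left out the call ended for Rn7s2 (adjusted p = 0.0543). With UNT 1 removed, no call was made for Rn7sk (adjusted p = 0.201). Calls that did not hold without UNT 2 were those of Rn7sk (adjusted p = 0.119).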

How the data were processed

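RNA sequencing was performed on total RNA of sorted cDC1s, with SMARTER mRNA-seq libraries, per the labels. Counts per gene were deposited by the authors without normalization. HISAT2, SAMtools, StringTie, featureCounts and GRCm38 are named per the submitters' processing notes, and their versions and settings, strand included, are not given in the sources used here. From the deposited table, counts of 2 TLI/ATS and 2 UNT libraries were filtered (filterByExpr, minimum count 10, minimum total 15), scaled by TMM and tested with edgeR 4.0.16 in R 4.3.3 (robust quasi-likelihood test, two-sided, Benjamini-Hochberg adjusted p under 0.05). CPM uses TMM-scaled library sizes. No replicate numbers pair the libraries by label. The procedure was tested on simulated data.

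Members and lists were chosen with earlier results of these data known. Lists are described by counts and medians. By rule, 193 genes were named: Epor and sort genes, the 12 largest changes and 10 most abundant calls per direction, the first 3 members and 4 smallest adjusted p-values of each list, and 15 most abundant genes. A further 42 were named after their values were seen. Some of these genes are not reported here. Alternatives were DESeq2 1.42.0, limma-voom (limma 3.58.1), other scalings and filters, each library left out, a replicate block, lists of other cells left out, and, added after seeing the data, length and GC trends taken out. Symbols of 98.9% of 47729 genes came from GENCODE vM21. Exons shared between genes were not resolved: 12 named genes share over 25% of exon bases. Intervals and floors cover counting error only.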

Additional observations from a re-analysis of the deposited data

How the results depend on the processing

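The 465 calls became 1320 in DESeq2 (435 higher, 885 lower), 711 in limma-voom (589 lower), and 260 with lists of other cells left out (43 higher, 217 lower). With the length trend taken out 167 genes were higher, and with length and GC trends taken out 184. Leaving out each library in turn gave 476 to 4908 calls, 103 to 2519 higher and 373 to 2609 lower, the largest counts without a TLI/ATS library. The replicate numbers do not pair the libraries by label (r = -0.0245 between deviations over genes), and a fit with a replicate block gave 1264 calls (323 higher, 941 lower). The causes of these shifts were not tested. Some log2 fold changes that did not pass turned sign with the TLI/ATS library kept: without TLI/ATS 2 and without TLI/ATS 1 they were -0.25 and 0.49 for Actb, -0.23 and 0.42 for Cyba, -0.15 and 0.34 for H2-Aa, -2.77 and 3.85 for Ighg3, 0.49 and -0.55 for Cd274, 0.59 and -0.42 for Jak2, and -1.19 and 0.57 for Tmsb4x. With 2 libraries per group, modest differences are hard to detect, and a gene that did not pass is not shown to be level.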

Other observations

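Immunoglobulin variable segments, given above only as a number of calls, were used unevenly within the TLI/ATS libraries. Summed over segments, Igkv had 328 and 846 CPM in TLI/ATS, against 328 and 308 CPM in UNT. Ighv had 120 and 258 CPM in TLI/ATS, against 97.1 and 96.3 CPM in UNT. Igkv counts were concentrated: 50% of them came from 4 and 6 segments in the TLI/ATS libraries, against 16 and 16 in the UNT libraries, and 50% of the Ighv counts came from 4 and 5 segments, against 15 and 14. Igkv4-55 held 21.4% of Igkv counts in TLI/ATS 1 (95% Wilson interval 20.9 to 21.9) and 0.457% in TLI/ATS 2, while Igkv1-135 held 0.215% in TLI/ATS 1 and 15.8% in TLI/ATS 2. In UNT the leading segment was Igkv12-44 in both libraries, with 6.04% and 5.68%. Shared Igkv usage, the sum over segments of the smaller share, was 17.8% between the TLI/ATS libraries and 93.4% between the UNT libraries. For Ighv it was 9.98% between the TLI/ATS libraries and 87.5% between the UNT libraries. Near-identical segments can exchange reads.

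The heavy chains also differed between the TLI/ATS libraries. Ighg3 had 0.627 and 61.7 CPM in TLI/ATS, against 4.46 and 4.14 CPM in UNT, and Ighg1 had 5.83 and 69.4 CPM, against 4.81 and 4.02 CPM. Ighm had 1264 and 2051 CPM in TLI/ATS, against 1075 and 1091 CPM in UNT. T cell receptor Trbv segments had 48 and 34 counts in TLI/ATS, against 1934 and 1765 counts in UNT.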
